A study of Canis lupus familiaris with 2 samples.

Results

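The regions described here are the shores of unmethylated CpG-dense windows in MDCK cells, a canine kidney line of epithelial origin. The autosomes were divided into fixed windows of 1000 bp. A CpG site was kept if it had at least 5 calls in both libraries, and a window's level is the share of methylated calls among all calls of its kept sites, called summed calls below. A core was a window with 40 or more listed CpG sites and a methylation level under 10% in the untreated library. A shore was a window 1 or 2 steps to either side of a core that had fewer than 40 listed sites, at least 5 kept sites, and a level of 10% or more in the untreated library. There were 10443 cores, with a median of 80 listed sites, and 21648 shores, which made up 1.45% of the 1497941 windows tested. Of the shores, 9816 lay 1 step from the nearest core and 11832 lay 2 steps away, and 212 had cores on both sides. Both kinds of window were chosen by their level in the untreated library, so differences that start from that level are given as a description.

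Genomic DNA of 2 cultures was sequenced after bisulfite conversion, which turns unmethylated cytosine into uracil and spares methylated cytosine. The control culture was left untreated and is labelled epithelial. The other culture received TGF-beta at 5 ng/ml and is labelled mesenchymal. Both were kept for 30 days in parallel, in DMEM with serum, and gave 1 library each, called the control and the treated library below, so no difference given here has a replicate check. TGF-beta is a signalling protein under which cultured epithelial cells can lose their junctions and turn mesenchymal, and the design asks how DNA methylation stands before and after that transition.

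CpG islands are stretches rich in CpG that often overlap gene promoters and are kept free of methylation in most cells. Most CpGs outside islands are methylated, and the shores are the transition zones between these states. DNA methyltransferases add the mark, TET enzymes oxidise it, and island borders are known as places where methylation varies between cell types and in cancer. Positions are in the canFam3 build. Gene annotation and sequence of that build are not used here.

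The control library held 656122583 calls and the treated library 1019766599 calls. A call is a read base scored as methylated or unmethylated at a CpG cytosine. The shores held 321266 kept sites, with 8857142 control and 14375457 treated calls, and the median shore had 351 and 530 calls. The mitochondrial level, which limits how much conversion can have failed, was 0.211% in the control and 0.329% in the treated library.

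Of 31228 window positions within 2 steps of a core, 277 had no listed site. Another 4410 had 40 or more listed sites without being cores, 3283 had too few kept sites, and 1610 were under 10% in the control. Among those 1610 unmethylated neighbours, 332 were at 10% or more in the treated library, and 264 of the shores were under 10% there. The member closest to the level limit was chromosome 13 from 9897001 to 9898000, at 10.02% in the control and 45.3% in the treated library. The neighbour just outside it was chromosome 35 from 24881001 to 24882000, at 9.99% and 7.67%.

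The windows next to a core were transition zones, whereas most windows at the second step were already methylated. Shores at the first step had a median control level of 65.8% (quartiles 39.6% and 84.4%), and those 2 steps away had 90.8% (81.3% and 94.3%). In the treated library the medians were 67.9% (40.2% and 86.7%) and 91.9% (83.7% and 94.9%). At the first step 59.5% of shores were between 20% and 80% in the control, and 54.8% were in the treated library. At the second step these shares were 21.9% and 18.9%. The level at the second step was close to that 3 and 4 steps out, where the medians were 91.3% and 92.3%, so the name shore describes the first step better than the second. CpG density fell in the same order, from a median of 18 listed sites per window at the first step to 11 at the second.

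**Figure D1:**
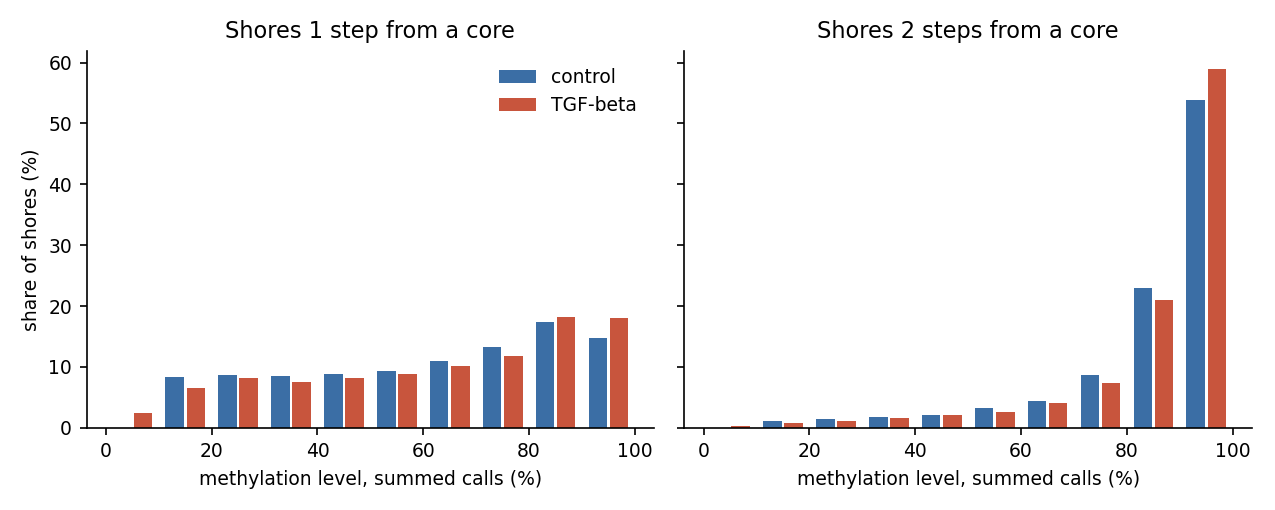
Share of shores (vertical axis, %) in classes of 10 points of methylation level by summed calls (horizontal axis, %), for the 9816 shores 1 step and the 11832 shores 2 steps from a core, with bars for the control and the treated library. The class under 10% is empty in the control by definition, first-step shores spread over all other classes, and second-step shores at 90% or more made up 53.9% of theirs without and 59.0% with treatment.

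Seen by distance, methylation rose steeply within the first 1000 bp beyond the core edge in both libraries, and it was higher in the treated library in each of 50 bins of 100 bp. The site average, in which each site counts the same, was 12.96% in the control and 15.1% in the treated library at 1 to 100 bp from the edge, over all kept sites outside cores. It was 56.3% and 59.3% at 501 to 600 bp, and 77.7% and 79.6% at 901 to 1000 bp. The libraries differed most within the steep part of the curve, with 3.02 percentage points at 501 to 600 bp. The difference was 1.53 points over 1001 to 2000 bp and 0.905 points over 4001 to 5000 bp. Inside the cores themselves the site average was 1.94% and 2.83%, a difference of 0.889 points.

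Within the shores alone the same shape was seen. From 101 to 200 bp beyond the core edge the site average was 34.5% in the control and 38.0% in the treated library. At 301 to 400 bp it was 59.3% and 62.6%, and at 901 to 1000 bp it was 83.5% and 85.1%. Near the edge, fewer sites were in the lowest class and more in the highest. At 101 to 200 bp, sites under 20% made up 52.8% and 48.7% of sites, and sites at 80% or more made up 22.6% and 25.8%. At 1301 to 1400 bp the sites between 20% and 80% made up 14.8% and 12.9%, and those at 80% or more 79.7% and 82.1%. In first-step shores with a core on 1 side, the 500 bp nearer the core were at 41.7% and 44.9%, 3.25 points apart, and the 500 bp farther away were at 79.2% and 81.3%, 2.04 points apart.

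**Figure D2:**
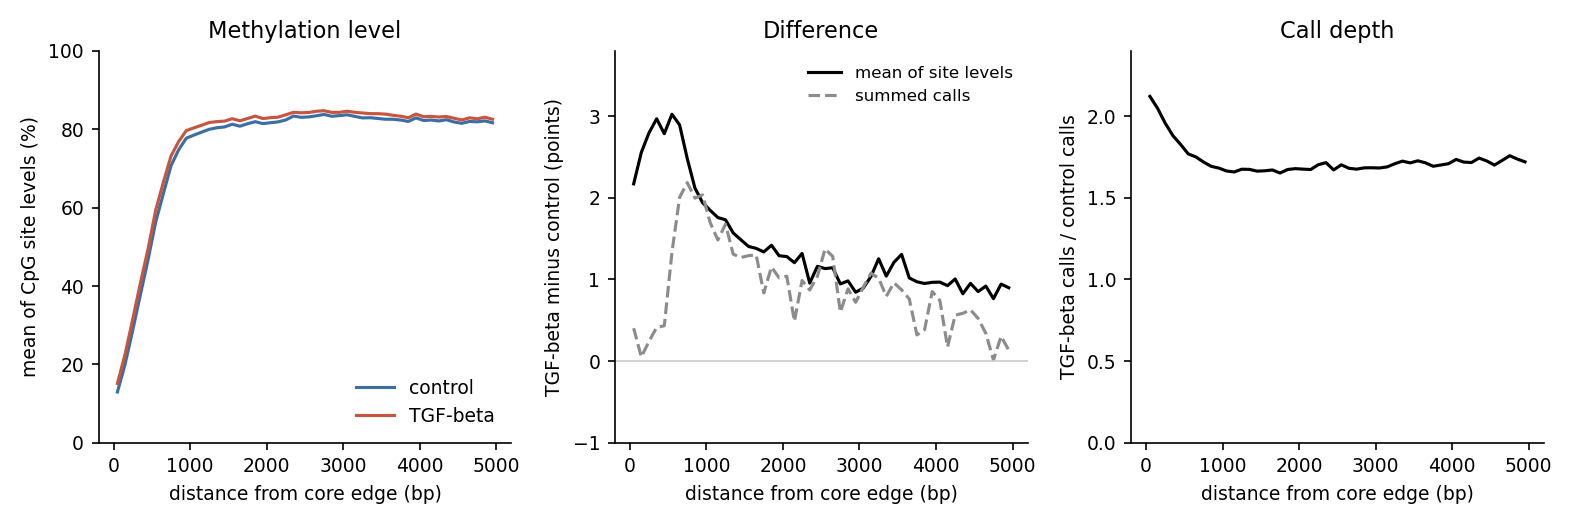
Distance from the nearest core edge in bins of 100 bp up to 5000 bp (horizontal axes) against the site average (%) in each library, the TGF-beta minus control difference in percentage points by site average and by summed calls, and the ratio of treated to control calls. The site average was higher in the treated library in each bin, up to 3.02 points at 501 to 600 bp, and the call ratio was 2.12 next to the edge and 1.68 at 901 to 1000 bp.

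The ways of taking a level gave different answers next to the core. In summed calls deep sites count more, and the treated library was relatively deeper near the cores. By summed calls the difference over 1 to 1000 bp was -0.885 points, although it was above 0 in each bin of 100 bp, and the site average gave 2.58 points. When every site was drawn down to the smaller call count of the 2 libraries, summed calls gave 2.56 points. Treated over control calls stood at 2.26 in cores, 1.66 in first-step shores and 1.58 in second-step shores. Beyond drawing to equal calls, the part of this ratio in the differences was not tested.

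Shores were on the whole slightly higher in the treated library. The median difference was 0.929 points by summed calls (quartiles -2.06 and 4.40) and 1.31 points by the site average (quartiles -1.05 and 4.29). At the first step the medians were 0.9995 and 1.94 points, and at the second step 0.897 and 0.842 points. Over all autosomal windows tested the medians were 0.459 and 0.206 points, and over 1116475 windows of fewer than 40 listed sites, 10% or more in the control and more than 10 steps from any core they were 0.377 and 0.0515 points. These last windows also leave out the neighbours of methylated CpG-dense windows and are called distant windows below. By the site average the median over the shores was above 0 on 38 of 38 autosomes, from 0.696 points on chromosome 31 to 1.75 points on chromosome 14.

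Among classes of control level, the largest median difference was in second-step shores with low or intermediate levels. These 1171 windows, at 10% to 60% in the control, had medians of 42.2% and 47.5% in the control and treated library, with a median difference of 5.14 points by summed calls and 4.66 points by the site average. First-step shores of the same class numbered 4278 and had median differences of 0.869 and 2.76 points. Distant windows of the same class had 0.680 and -0.118 points. Shores at 90% or more differed little, with a median of 0.241 points over 7832 windows.

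Windows chosen for a low control level can rise on a second reading through sampling alone. The class was therefore also taken from 1 strand and the difference from the other, both by summed calls. The site average was not taken by strand. Reads of either strand stem from separate DNA strands, but from the same culture and library. The split therefore cannot remove a deviation of the control that both strands share. Second-step shores at 10% to 60% on the plus strand differed by a median of 4.18 points on the minus strand, where 61.8% of 1050 windows were higher. With the strands exchanged the median was 4.40 points, and 64.3% of 1003 windows were higher. First-step shores of this class gave 0.898 and 0.886 points, and distant windows 0.379 and 0.376 points. Classing instead by the site average, taken as the mean of both libraries, which treats them alike, gave a site average difference of 3.60 points in second-step and 2.52 points in first-step shores, against -0.711 points in distant windows. In these same classes the median difference by summed calls was 2.38 points at the second step and -0.0211 points at the first. These are descriptions, since windows of 1 library are not replicates.

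**Figure D3:**
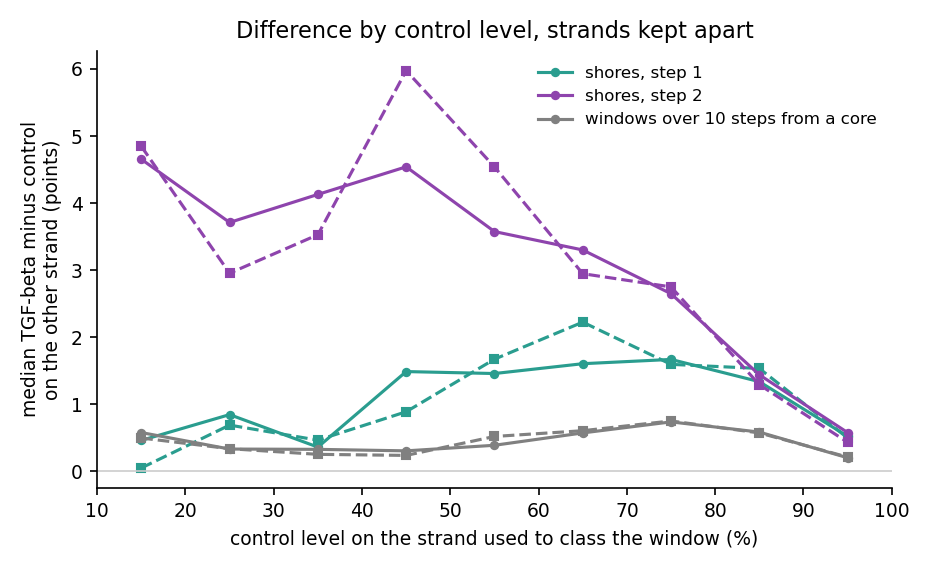
Control level on 1 strand in classes of 10 points (horizontal axis, %) against the median TGF-beta minus control difference on the opposite strand (vertical axis, percentage points), both by summed calls, for shores 1 and 2 steps from a core and for distant windows, with solid lines for windows classed on the plus strand and dashed lines for the minus strand. Second-step shores between 10% and 60% lie between 2.95 and 5.98 points, above first-step shores and distant windows of the same classes; windows 3 and 4 steps out, which are not drawn, reached 6.17 points.

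The same difference was seen in windows beyond the shores, and it was not tested whether second-step shores differ from them. At 3 and 4 steps from a core, windows of 10% to 60% in the control had a median difference of 4.77 points by summed calls and 3.33 points by the site average. At 5 to 10 steps the values were 3.69 and 2.35 points. Beside methylated CpG-dense windows, taken as those at 80% or more in the control, the same class had 2.09 and 0.864 points. Distant windows with 18 or more listed sites, the median of first-step shores, had 0.88 and -0.0860 points. Measured on the opposite strand, windows 3 and 4 steps out gave 3.59 and 3.74 points, close to second-step shores. In single classes they were at times above them, with 6.17 against 4.65 points between 10% and 20% on the plus strand. Windows beside methylated CpG-dense windows gave 1.25 and 1.53 points on the opposite strand, above first-step shores. Classed at 10% to 60% by the mean of both libraries, windows 3 and 4 steps out gave 1.98 points by the site average and 2.16 by summed calls. At 5 to 10 steps these medians were 1.07 and 0.750 points, and beside methylated CpG-dense windows -0.255 and -0.0200 points.

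Density and surroundings were compared in the same way. By the site average, first-step shores differed by a median of 1.84 points at 5 to 9 listed sites and 2.03 points at 30 to 39. By summed calls the same classes differed by 1.69 and 0.332 points, as the call ratio rose from 1.23 to 1.92. Most shores lay in methylated surroundings, with 8432 first-step shores in blocks of 100 kb whose other sites averaged 70% or more in the control. These differed by a median of 1.95 points by the site average, against 1.87 points for 1307 first-step shores in blocks of 50% to 70% and 2.24 points for 76 in blocks under 50%. At the second step the medians were 0.857, 0.787 and -0.280 points in the same order, the last over 73 shores.

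The border between unmethylated and methylated DNA lay nearer the cores in the treated library more often than farther away. Adjacent cores were joined into 7970 stretches, of which 5886 were a single window. On each of the 15166 sides with no other core within 5000 bp, the border was the first of 3 kept sites in a row whose mean level was 50% or more. A border was found in both libraries on 15128 sides, at a median of 305 bp from the core edge in the control and 274 bp in the treated library. It was at the same site on 8974 sides, nearer the core in the treated library on 4554 (30.1%) and farther on 1600 (10.6%). The mean shift was -35.7 bp, that is, towards the core. The cores were chosen by their control level alone, which can favour borders that lie farther out in the control. Cores chosen from the treated library or from both libraries were not tried, so the part of this choice in the shift was not tested.

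Larger shifts were rarer and leaned the same way. Shifts of at least 200 but under 500 bp were nearer on 714 sides and farther on 198, and shifts of 500 bp or more were nearer on 294 and farther on 76. More sides were nearer than farther on 38 of 38 autosomes, with ratios from 1.82 to 4.43. The left and right sides gave mean shifts of -35.7 and -35.8 bp. Sides of single cores moved by -33.2 bp on average, and those of stretches of 3 or more cores by -45.2 bp. Where both sides of a stretch could be read, in 7218 stretches, the border was nearer on both sides in 666, farther on both in 67 and moved in opposite directions in 430. At least 1 side moved nearer by 500 bp or more in 275 stretches, and both sides did so in 4. Over all 15128 sides, 30.1% were nearer, 10.6% were farther and 294 were nearer by 500 bp or more. Whether the sides of a stretch move together was not tested.

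**Figure D4:**
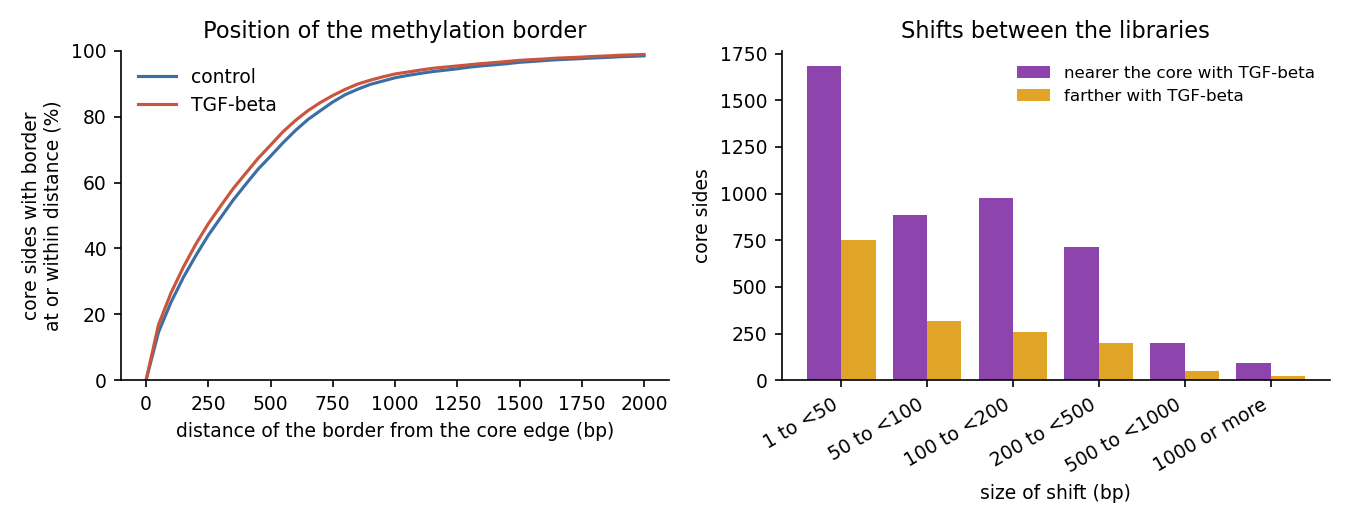
Left, share of 15128 core sides (vertical axis, %) whose methylation border lies at or within a given distance of the core edge (horizontal axis, bp) in each library. Right, number of sides by the size of the shift between libraries (bp), nearer or farther in the treated library; nearer shifts outnumber farther ones in each size class, with 1681 against 753 under 50 bp.

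The strands, read apart, show how far a border moves within a library. On the plus strand alone the border was nearer in the treated library on 2478 sides and farther on 1052, and on the minus strand alone on 2488 and 995. Between the strands of the control it was nearer on 1456 sides and farther on 1487, and in the treated library the strands gave 1253 and 1200. Both strands were nearer in the treated library on 1414 sides, both farther on 352, and the strands were opposed on 470. Between the libraries, shifts of 500 bp or more numbered 291 nearer and 143 farther on the plus strand, and 288 and 135 on the minus strand. Between the strands of the control they numbered 168 and 164, and in the treated library 145 and 127. On both strands at once, 123 sides were nearer by 500 bp or more and 42 farther. The mean shift was of like size at each relative depth, but the share of sides that moved was not. Sides were split into 3 equal groups by the ratio of treated to control calls within 2000 bp, with median ratios of 1.12, 1.67 and 2.27. The mean shifts were -38.1, -35.5 and -33.7 bp. At equal call numbers per site, 4597 sides were nearer and 1639 farther.

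Among sides whose border shifted by at least 500 bp in the same direction on each strand, the longest shifts were picked after their values were seen. To the right of the core on chromosome 9 from 12006001 to 12007000, the border stood 2928 bp away in the control and 672 bp away in the treated library. To the right of the cores on chromosome 30 from 28831001 to 28833000 it stood at 2119 and 206 bp. Within that limit the longest shift away from a core was to the left of chromosome 20 from 32272001 to 32273000, from 808 to 1815 bp. Without it, 25 sides were farther by 1000 bp or more and 94 were nearer.

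Single shores were then compared by Fisher's exact test on summed calls, with Benjamini-Hochberg adjustment across every tested window. It sets library against library, not condition against condition. A shore was called at an adjusted p under 0.05 and a difference of at least 20 points. It called 513 shores higher (2.37%) and 239 lower (1.10%), against 2.22% higher and 1.43% lower over all tested windows (2.26% and 1.43% of the autosomal ones). The share called over both steps is thus near the background and is not a result about shores. At the first step 280 were higher (2.85%) and 180 lower (1.83%), and at the second step 233 (1.97%) and 59 (0.499%). By summed calls the lower share was above that of all tested windows at the first step and below it at the second. Of the 180 first-step shores called lower, 66 were higher by the site average. Shores called higher had medians of 42.7% and 71.0%, values that selected them.

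The calls, most of all the lower ones, thinned out when sites were weighted equally. Of the 239 shores called lower, 75 were higher by the site average, and the median of that measure was -1.97 points. Of the 513 called higher, 9 were lower by the site average and the median was 19.5 points. When 20 points were also required by the site average, 247 shores were higher (1.14%) and 33 lower (0.152%), against 0.861% and 0.455% of all tested windows and 0.891% and 0.447% of autosomal ones. Of the lower ones, 10 were first-step shores (0.102%) and 23 second-step shores (0.194%), so both steps were under the share of all tested windows. In first-step shores called lower, the ratio of treated to control calls was 2.18 in the 500 bp nearer the core and 0.766 in the 500 bp farther away. It was 1.76 and 1.51 over first-step shores as a whole. With the variance scaled to that between strands, a score test called 251 shores higher (1.16%) and 140 lower (0.647%), against 0.605% and 0.259% of all tested windows. Set against all tested windows, the lower share of shores was thus smaller by both measures and larger in the score test.

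A shore called higher lay beside 489 of the 7970 stretches and one called lower beside 237, and 10 stretches had both. In 30 stretches 2 or more shores were called higher. Shores on both sides were called higher in 13 stretches and lower in 5. By chromosome, more shores were called higher than lower on 31 of 38 autosomes. Chromosome 23 had the highest share called higher, with 15 of 359 (4.18%), and 11 of its shores were called lower (3.06%). Over all tested windows of the genome 2.22% were called higher and 1.43% lower, so the higher calls prevailed there too. Shares over all windows of single chromosomes, or beside other stretches, are not given. These counts are therefore not a result about shores.

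The cores beside called shores mostly stayed low in the treated library, a value the rule did not use. The 603 cores next to a shore called higher had medians of 0.645% and 1.38%, and 56 (9.29%) reached 10% there. Of 9572 cores next to no called shore, 723 (7.55%) reached 10%, with a median of 1.43%. In the exact test 8 of the 603 cores were themselves called higher (1.33%), against 23 of 9572 (0.240%) and 2.22% of all tested windows.

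The shores named next are called shores with at least 10 kept sites and 200 calls per library, whose strands and site average all differ by 10 points or more in 1 direction. That rule was met by 184 shores called higher and 25 called lower, and the 5 largest of each are given. Brackets hold exact binomial intervals at 95%, for counting error alone.

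The largest gain was directly left of a core on chromosome 14, from 40417001 to 40418000. Its 22 sites were at 10.2% (8.04 to 12.8, 664 calls) in the control and 76.8% (74.5 to 79.0, 1397 calls) in the treated library (Fisher's exact test, adjusted p = 3.01e-188). The core beside it stayed at 6.34% and 8.53%, and the next window outward went from 75.1% to 84.0%, so the border came up to the core. On the far side of that core, the window from 40420001 went from 8.24% to 43.8%.

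The second gain, on chromosome 7 from 6165001 to 6166000, lay 2 steps left of a core. Its 28 sites were at 21.2% (18.4 to 24.3, 769 calls) and 85.4% (83.4 to 87.2, 1378 calls) (Fisher's exact test, adjusted p = 5.17e-193). Here the control held a separate dip, since the window between it and the core was at 64.5% in the control and 53.2% in the treated library. That dip was filled in the treated library, while the core stayed at 6.14% and 3.51%.

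The third gain, on chromosome 18 from 52321001 to 52322000, was 2 steps right of a core. It went from 32.6% (26.4 to 39.2) to 84.5% (79.9 to 88.4) over 11 sites (Fisher's exact test, adjusted p = 1.59e-31). The window between it and the core was unmethylated in both, at 1.57% and 4.13%. Within the shore, the 3 sites from 52321251 to 52321500 already averaged 67.7% in the control, and 97.4% in the treated library. The 4 sites from 52321751 to 52322000 averaged 25% and 82.7%. The fourth, on chromosome 5 from 68230001 to 68231000, went from 26.1% (21.2 to 31.6) to 76.4% (72.2 to 80.2) over 15 sites (Fisher's exact test, adjusted p = 1.70e-39). By the site average that gain was 37.9 points. It was a dip like the one on chromosome 7, because the window nearer the core was at 75% and 76.5%. The dip was filled in part only, since the 3 sites from 68230751 to 68231000 averaged 0% without and 16.3% with treatment. The fifth, on chromosome 1 from 46317001 to 46318000, touched a core and went from 28.7% (25.1 to 32.6) to 76.4% (73.6 to 79.0) over 19 sites (Fisher's exact test, adjusted p = 4.75e-73). Its core was at 6.14% and 15.0%, and at 4.14% and 13.9% by the site average, a difference under the 20 points needed for a call.

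The losses with support from both measures were fewer, and the largest pair formed 1 region. On chromosome 18, the shore from 43159001 to 43160000 was at 72.7% (67.5 to 77.5, 319 calls) in the control and 18.8% (15.6 to 22.3, 553 calls) with treatment over 25 sites (Fisher's exact test, adjusted p = 2.68e-53). The next shore outward, to 43161000, went from 87.8% (84.0 to 91.0) to 39.4% (36.4 to 42.6) over 18 sites (Fisher's exact test, adjusted p = 2.88e-58). The core to their left was at 6.80% and 5.27%, and the window beyond them at 94.1% and 95.3%, so lower levels in the treated library were bounded by these 2 windows. The stretch was not unmethylated throughout, since the site average with treatment was 63.9% from 43160001 to 43160250 and 68.0% from 43160751 to 43161000. The strands differed in size, with -69.7 (plus) and -23.2 (minus) points in the inner shore and -31.8 and -60.1 points in the outer one. The 4 sites between 43160251 and 43160500 averaged 69.6% without and 0% with treatment.

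The other named losses were narrower than a window. On chromosome 27 from 44792001 to 44793000, the level went from 81.4% (76.1 to 86.0) to 42.6% (38.2 to 47.1) over 12 sites (Fisher's exact test, adjusted p = 9.29e-23). Within it, 4 sites from 44792251 to 44792500 averaged 68.3% without and 0% with treatment, and 4 sites from 44792751 to 44793000 were at 94.8% and 92.9%. On chromosome 26 from 381001 to 382000, it went from 58.3% (53.4 to 63.0) to 20.0% (17.7 to 22.5) over 11 sites (Fisher's exact test, adjusted p = 2.22e-42). By the site average, the first 250 bp there were at 68.5% and 65.5%, and the next 250 bp at 55.8% and 4.35%. On chromosome 7 from 34943001 to 34944000, it went from 87.7% (83.9 to 91.0) to 57.3% (53.5 to 61.0) over 23 sites (Fisher's exact test, adjusted p = 5.14e-23). The loss in that shore was in the 250 bp next to the core, from 71.6% to 38.8% by the site average. The core beside it was at 3.94% and 14.7% by summed calls but at 3.70% and 5.21% by the site average. With sites of at least 10 calls that last shore differed by -16.4 points, short of the 20 needed for a call. Plus-strand calls alone gave -29.7 points for the shore on chromosome 26, and minus-strand calls gave -14.9 points, no longer called (Fisher's exact test, adjusted p = 0.182). Both were smaller in size than the -38.3 points of all its calls, and the site average gave -32.7 points. The reason was not tested.

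**Figure D5:**
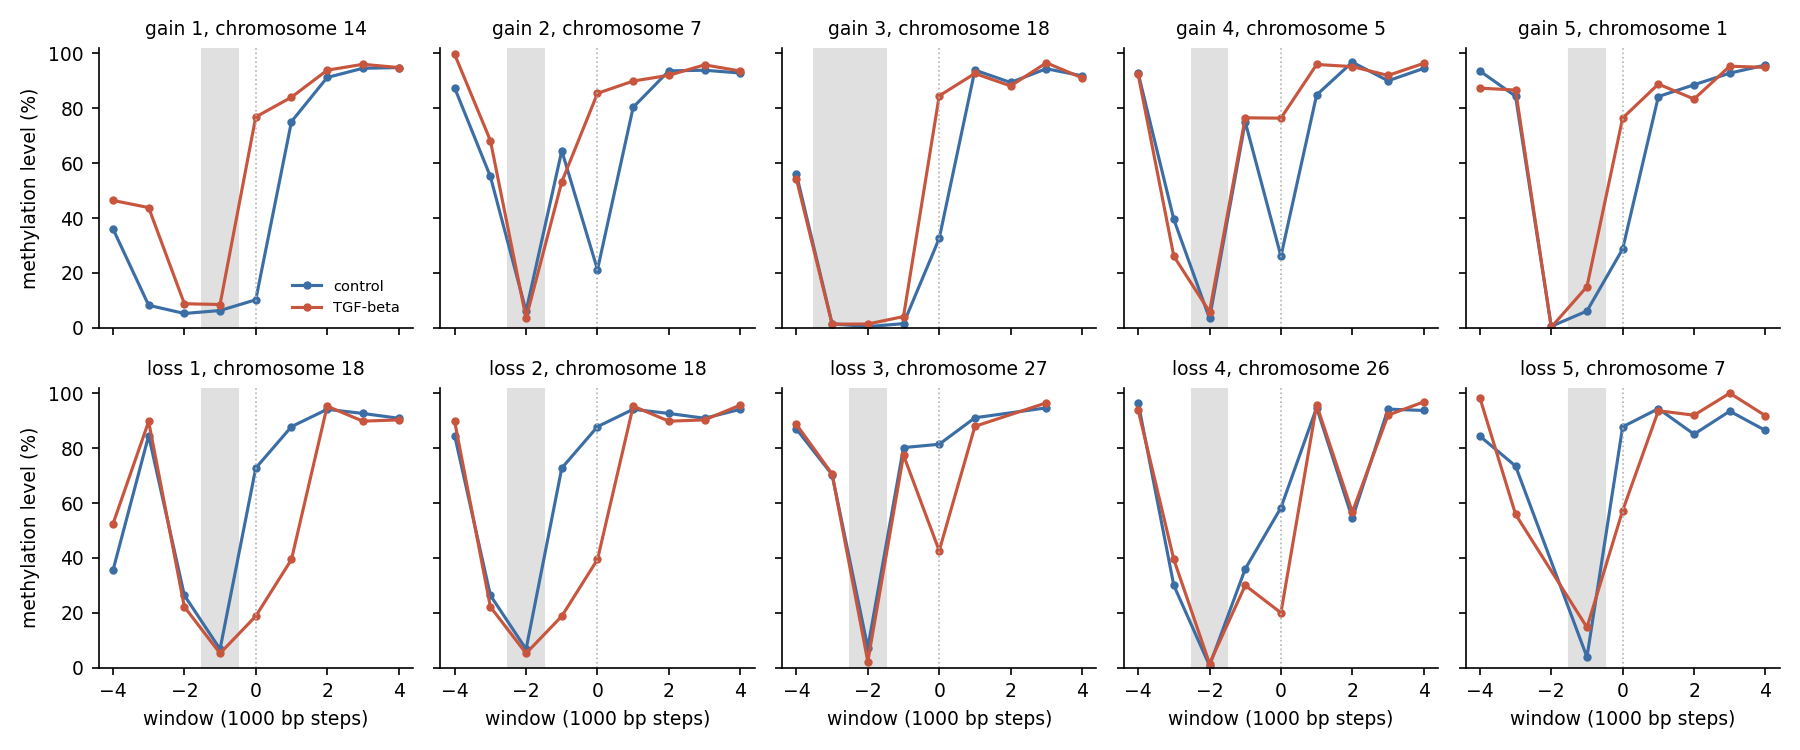
Methylation level by summed calls (vertical axes, %) in the control and the treated library over windows of 1000 bp around the 5 largest gains and 5 largest losses. Each shore is at 0 with its core to the left, cores are shaded, and windows with fewer than 3 kept sites are left out; losses 1 and 2 are adjacent windows on chromosome 18. By window level, gains 1, 3 and 5 narrow the low stretch around a core. Within gain 3, however, 3 sites already averaged 67.7% in the control. The core of gain 5 also went from 6.14% to 15.0%. Gain 2 fills a dip set apart from the core, and gain 4 fills such a dip in part.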

How the data were processed

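Whole-genome bisulfite libraries of 1 control and 1 TGF-beta culture were compared, grouped by the labelled agent. The deposited values are counts, with the authors' methylated and unmethylated calls for each CpG cytosine. The submitters' processing notes name Bismark, Bowtie 0.12.8 and canFam3, and the labels' protocols name SOAPaligner2. Per the labels' protocols, inserts of 80 to 150 bp were read with paired reads of 100 bases. Mates can thus overlap, and with duplicates this would make intervals too narrow. How either was treated is not given in the sources used here. The methylated column was told from the unmethylated one by its values, since mitochondrial DNA is nearly free of methylation.

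Adjacent cytosines were joined into 25888236 CpG sites, and sites needed 5 calls in both libraries. A level is methylated calls over all calls of a window. The site average weights sites equally. A core needed 5 kept sites. A line naming no chromosome in each file (12 and 6 calls) was left out. Fisher's exact test ran over all windows with 5 kept sites. The test and the border search were tested on simulated data. The shores, comparisons and limits were chosen with earlier results of these data known. Named shores are the 5 largest gains and losses among called shores with 10 kept sites, 200 calls per library and 10 points in 1 direction on each strand and by the site average. Alternatives are in the closing section. Computation used scipy 1.17.1 and numpy 2.4.6 under Python 3.11.15, with tables in pandas 2.3.3 and pictures in matplotlib 3.10.9.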

Additional observations from a re-analysis of the deposited data

How the results depend on the processing

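The median difference of shores was above 0 under each of 13 alternatives, from 0.862 to 1.31 points. With site levels weighted equally it was 1.31 points over all shores and 1.94 at the first step, with 247 shores called higher and 33 lower by both measures. With calls drawn to the smaller count these values were 1.27, 1.89, 332 and 50. With 50 or more listed sites in a core the first step gave 0.777 points. Shores chosen on the plus strand and measured on the minus strand gave 1.03 points over all shores, 1.02 at the second step, 4.14 at the second step between 10% and 60%, and 435 lower calls, and the reverse gave 386 lower calls. Classing by summed calls averaged over the libraries, added after the data were seen, gave 2.30 points by summed calls for the second step between 10% and 60% (2.38 when classed by the site average). Thresholds of 10 and 30 points gave 2029 and 116 higher and 1210 and 50 lower calls. The score test with overdispersion gave 251 and 140.

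By distance, the summed difference over 1 to 1000 bp reversed from -0.885 to 2.58 points with the site average and to 2.56 with equal calls. Over 1001 to 2000 bp it moved from 1.32 to 1.53 and 1.49 points. The border was nearer more often than farther at levels of 30% and 70%, with 5 sites in a row and with equal calls. Each of these used the cores chosen by their control level. Added after the data were seen, shifts of 500 bp or more numbered 294 nearer and 76 farther. Counting shifts of any size, the plus strand alone gave 2478 and 1052, and the minus strand alone 2488 and 995. The cause of these changes was not tested beyond equal calls. Among the named shores, the largest loss was -23.2 points on the minus strand, the loss on chromosome 26 was -14.9 points on the minus strand and the loss on chromosome 7 was -16.4 points at 10 calls per site. No library could be left out, and no paired analysis was possible because each group has 1 library.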
